A study of Mus musculus with 2 samples.

Results

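The cells described here are fibroblasts of the mouse colon that carried transcripts of Pi16, a secreted peptidase inhibitor that marks fibroblasts of vessel sheaths and other connective tissue borders in many organs. A barcode was counted as a member when it held at least 2 UMIs (unique molecular identifiers, 1 for each captured transcript) of Pi16, at least 10 UMIs summed over Col1a1, Col1a2 and Col3a1, no Msln and fewer than 3 Epyc UMIs. The members were thus chosen by measured UMIs of these 6 genes. Barcodes first had to carry 500 or more genes and no more than 10% mitochondrial UMIs, which 19463 did, and 3845 of them (19.8%) met this rule, 1975 in the control library and 1870 in the Cre library. The 11056 other collagen-positive cells, 7047 and 4009, served as comparators.

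Sorted stromal cells from whole colons were profiled by single-cell RNA sequencing. Control mice carried 2 floxed Il10ra alleles (Il10ra ff), and the others carried the same alleles with a Cre recombinase driven by Pdgfra (Il10ra ff; Pdgfra-cre). Il10ra encodes a subunit of the receptor for IL-10, and Pdgfra is active in most fibroblasts, so the Cre is not particular to the Pi16-positive ones. The design counts 2 mice of 6 months per genotype, each genotype gave 1 library, and the labels do not tie cells to mice. Viable Podoplanin-positive cells had been sorted, with leukocytes (CD45), endothelium (CD31) and epithelium (EpCAM) gated out. With 1 library per genotype there is no replicate: no difference below was tested, intervals cover counting error only, and genotype, mouse, preparation and library cannot be told apart.

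Fibroblasts with Pi16 and Dpp4, a surface peptidase, lie in the adventitia, the outer sheath of vessels, and in the submucosa, and are described in many tissues as a progenitor-like population with high Cd34 and Ly6a. Type I interferons and interferon gamma signal through transcription factors that bind short motifs upstream of antiviral genes, guanylate-binding proteins and the genes of MHC class I antigen presentation. IL-10 is a cytokine that restrains inflammatory gene expression. The study's title names a link between this receptor in fibroblasts and type I interferon signalling in the large intestine, which is the question the comparison of the libraries addresses. Tissue position was not measured, so "adventitial" here rests on transcripts alone.

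Pi16-positive cells made up 21.9% (exact 95% interval 21.0 to 22.8) of the collagen-positive cells of the control library and 31.8% (30.6 to 33.0) of those of the Cre library. As shares of all kept barcodes the values were 17.9% and 22.2%. The rule counts raw UMIs, and the members of the Cre library were deeper, with a median of 10134 UMIs against 7485, while the comparators held 8144 and 7343. When every cell was thinned to 2000 UMIs and 1 Pi16 UMI was required, the shares were 20.6% and 26.0%. The collagen minimum removed 335 and 443 further barcodes with at least 2 Pi16 UMIs, and the Epyc limit removed 36 and 53. The libraries had 115 barcode sequences in common, 7 of them members in both.

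Pi16 chose the cells, so its level is a description. It stood at 2018 CPM (a gene's UMIs summed over the cells and divided by all their UMIs, times 1000000) in control members and at 1140 CPM in Cre members, against 26.0 and 40.3 CPM in the comparators. The comparators include the 39 control and 71 Cre cells with at least 3 Epyc UMIs, which the rule keeps out of the members. These gave 965 of the 1413 control and 878 of the 1401 Cre Pi16 UMIs of the comparators. Members held a median of 8 and 7 Pi16 UMIs and at most 190 and 237. Just inside the threshold were 237 control and 267 Cre cells with 2 UMIs, and just outside it were 448 and 491 with 1 UMI. As a background, a Pi16 UMI was seen in 2 of 30 and 1 of 54 glial cells and in 6 of 183 and 1 of 92 smooth muscle cells of the control and Cre libraries, at median depths of 4968 to 5627 UMIs. Among the comparators 6.88% and 13.8% of cells held a Pi16 UMI.

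The other 4 markers of adventitial fibroblasts, which the rule did not count, were also higher in the members of both libraries; since they accompany Pi16 in the same cells, this is a description. Cd55, which protects cells from complement, stood at 1538 CPM in control and 1262 CPM in Cre members, against 470 and 528 CPM in the comparators, and a UMI of it was present in 98.0% and 98.1% of members. Cmah, an enzyme of sialic acid synthesis, stood at 70.6 and 56.1 CPM against 2.81 and 7.60 CPM. Efhd1, a calcium-binding protein of mitochondria, stood at 58.6 and 27.7 CPM against 1.87 and 2.56 CPM. Dpp4 was the least abundant, at 30.6 and 25.2 CPM against 4.50 and 8.12 CPM. Only 14.4% of control and 13.9% of Cre members held a Dpp4 UMI, so single cells cannot be called Dpp4-negative at this depth. By these summed levels the label was not contradicted by any of the 4 markers.

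**Figure D1:**
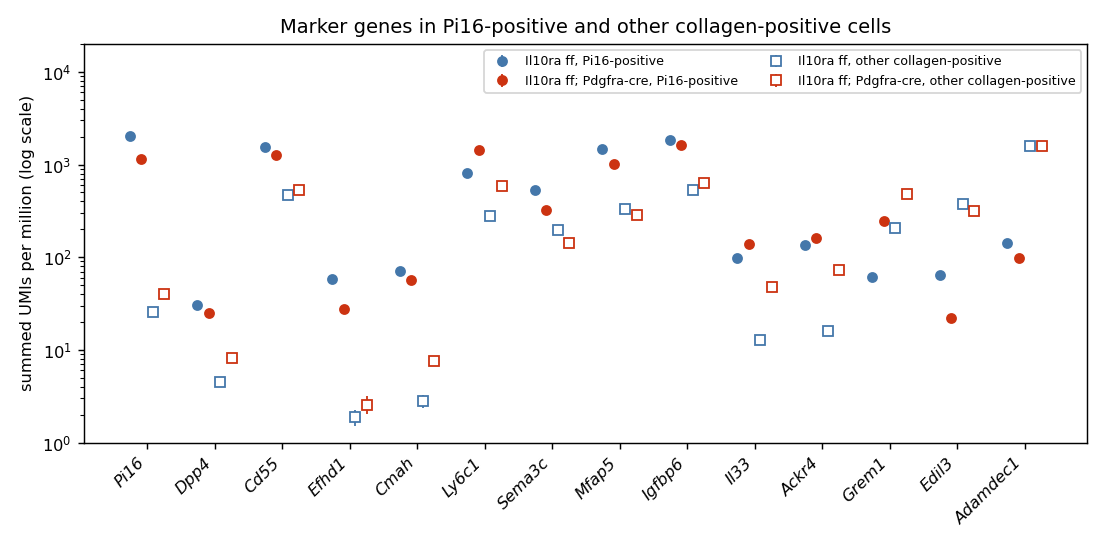
Summed CPM on a log scale for 14 genes in Pi16-positive cells (filled circles) and other collagen-positive cells (open squares) of the control (blue) and Cre (red) libraries, with 95% Poisson intervals of the counts, mostly smaller than the symbols. Pi16, Dpp4, Cd55, Efhd1 and Cmah lie higher in Pi16-positive cells of both libraries, while Edil3, Adamdec1 and Grem1 lie lower.

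Of 8965 genes measured at a mean of 10 CPM or more, 116 (1.29%) were at least 2-fold higher in Pi16-positive cells than in comparators in both libraries and 432 (4.82%) were at least 2-fold lower. Log2 ratios here are of CPM with 1 CPM added, and the median gene lay at -0.18 for the control and at -0.17 for the Cre cells. With that shift set to 0 the counts were 161 higher and 338 lower. Besides the given markers, the genes furthest above the comparators included Mrgprg, an orphan receptor (23.5 and 6.94 CPM against 0.276 and 0.0576), and Wnt10b, a WNT ligand (28.8 and 10.7 CPM against 1.47 and 0.547). Mrgprg came from few cells, 37 control and 20 Cre members, and the top 10 cells held 68.3% and 86.9% of its UMIs. Wnt10b was seen in 335 and 183 members. Npy1r, a receptor for neuropeptide Y, stood at 103 and 197 CPM against 4.46 and 36.3 CPM. Myoc, a secreted glycoprotein, stood at 74.7 and 139.7 CPM against 9.37 and 19.3 CPM, and Ccn5, a matricellular protein, at 19.7 and 43.7 CPM against 1.52 and 4.38 CPM. Furthest below were genes of mucosal fibroblasts: Adamdec1, a metalloprotease, at 143 and 97.0 CPM against 1573 and 1587 CPM, and the chemokine Cxcl14 at 17.6 and 17.4 CPM against 162 and 174 CPM.

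The members were also compared over a list of 36 adventitial genes, which includes the 4 markers above. It was chosen with earlier results of these data known. Genes that go with Pi16 follow from the choice of cells, so the list is a description and no separate support. Of its 33 measured members, 27 were at least 1.5-fold above the comparators in both libraries, where 2.99% of all measured genes were, and 1, the protein C receptor Procr, was below. Their median log2 ratio over the comparators was 1.71 for control and 1.28 for Cre cells. Has1, which makes hyaluronan, stood at 2258 and 2133 CPM against 265 and 628 CPM. Pcolce2, which aids collagen processing, stood at 595 and 514 CPM against 53.2 and 145 CPM, and Mfap5, a microfibril protein, at 1464 and 1003 CPM against 328 and 283 CPM. In contrast, 8 of 9 measured lamina propria genes and 7 of 10 measured subepithelial genes were at least 1.5-fold below, where 9.63% of all genes were. Genes of the submucosa divided. Of 11 measured genes of submucosal trophocytes 4 were above and 3 below by that fold in both libraries. Of 9 measured genes of other submucosal fibroblasts 5 were above and 2 below.

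Pi16-positive cells were not uniform, and the genes of the list graded with Pi16 itself. From cells with 0 Pi16 UMIs through 1, 2, 3 to 5, 6 to 10 and over 10, the summed adventitial list went from 10668 to 33306 CPM among control cells and from 11232 to 30177 CPM among Cre cells, higher at each step. Dpp4 went from 0.754 to 47.1 CPM and from 2.98 to 41.0 CPM. Grem1, a BMP antagonist of submucosal trophocytes, was highest at 0 or 1 UMI, and it declined from 169 CPM at 2 UMIs to 24.2 CPM over 10 among control cells and from 425 to 113 CPM among Cre cells. Edil3, which is high in other fibroblasts of these libraries, stood at 384 CPM (control) and 359 CPM (Cre) with 0 Pi16 UMIs. With 2 Pi16 UMIs it stood at 199 and 31.1 CPM, and over 10 at 21.5 and 14.0 CPM. Median depth also differed between these bins, from 5882.5 to 8953 UMIs for control members and from 8722 to 11523.5 for Cre members. Its part in the gradient was not tested.

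**Figure D2:**
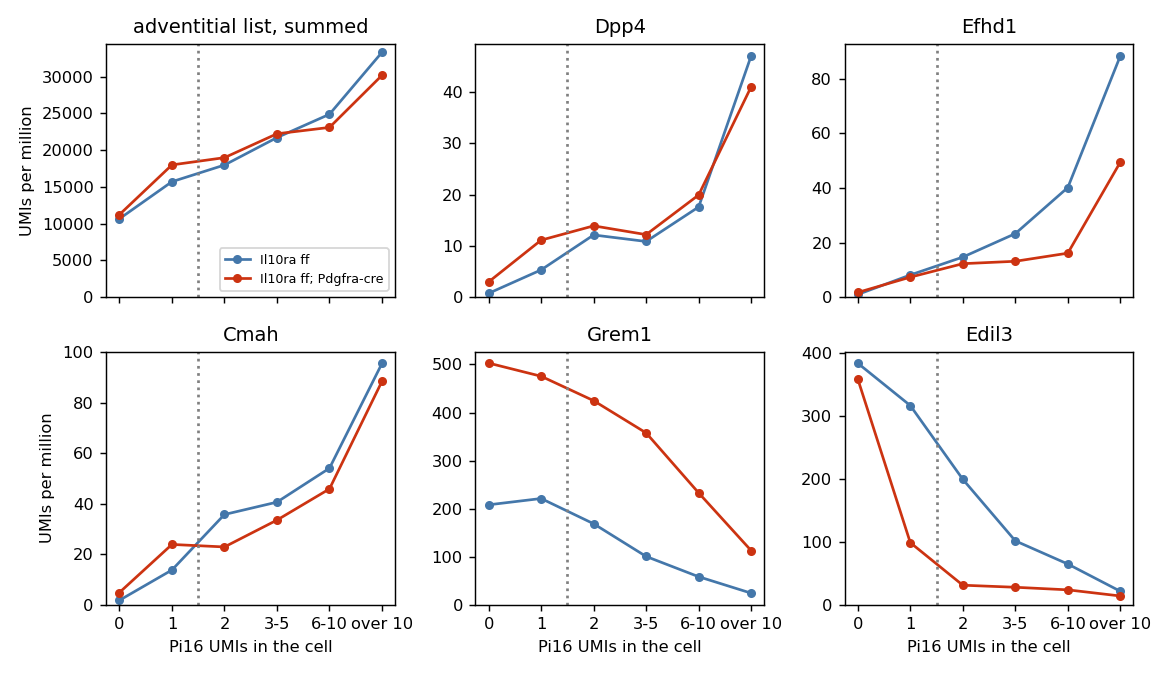
Summed CPM (linear axes from 0) of the adventitial list and of 5 genes in collagen-positive cells binned by their raw Pi16 UMIs, for the control (blue) and Cre (red) libraries; the dotted line marks the rule's threshold, and each point is 1 sum with no replicate. The adventitial list, Dpp4, Efhd1 and Cmah are highest in the cells with over 10 Pi16 UMIs, where Grem1 and Edil3 are lowest.

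Other groups of collagen-positive cells lay at different distances from the members. Cells with at least 1 Ackr4 UMI, at least 2 Grem1 UMIs and under 2 Pi16 UMIs, 101 and 392, held Dpp4 at 7.36 and 10.3 CPM and Igfbp6 at 1098 and 1382 CPM. Grem1, which chose them, stood at 1316 and 1649 CPM, against 60.6 and 243.7 CPM in Pi16-positive cells. Cells with at least 2 Edil3 UMIs and under 2 Pi16 UMIs, 2990 and 1498, held Dpp4 at 0.502 and 0.798 CPM and C3, the central complement component, at 155 and 1470 CPM, against 1709 and 4587 CPM in Pi16-positive cells. High C3 was not particular to the members, since the cells with Ackr4 and Grem1 held 1839 and 3606 CPM and those with Epyc 1652 and 4196 CPM. Cells with at least 3 Epyc UMIs, 39 and 71, were close to the members in Pi16 (2435 and 915 CPM) and Igfbp6 (2495 and 1870 CPM against 1826 and 1639 CPM). They held Dpp4 above the members, at 113.5 and 41.7 CPM (45 and 40 UMIs) against 30.6 and 25.2 CPM. Cmah was below the members, at 15.1 and 16.7 CPM against 70.6 and 56.1 CPM. Members themselves hold fewer than 3 Epyc UMIs by the rule.

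Markers of the cell types gated out were low. Ptprc, the CD45 gene, stood at 0.126 CPM in control and 0 in Cre members, Epcam at 0.0632 and 0.152 CPM and the endothelial gene Cdh5 at 0.0632 CPM and 0. A UMI of Pecam1, the CD31 gene, was present in 4.35% of control and 6.15% of Cre members, and in 3.99% and 4.17% of the comparators. The summed list of 5 blood endothelial genes stood at 17.8 and 21.1 CPM in members and at 31.2 and 34.7 CPM in the comparators. The summed list of 8 immune genes stood at 3.42 and 9.27 CPM, that of 7 epithelial genes at 4.17 and 5.93 CPM and that of 6 glial genes at 46.7 and 65.3 CPM, mostly Gpm6b. The 6 mesothelial genes summed to 8.29 and 25.9 CPM, nearly all of it Wt1, at 6.26 and 25.3 CPM in members and 4.70 and 16.8 CPM in the comparators. A Wt1 UMI was present in 2.43% of control and 12.7% of Cre members, while the mesothelial gene Upk3b stood at 0.253 and 0.203 CPM. The 14 genes of the free RNA list summed to 14.7 and 30.8 CPM in members and to 72.5 and 277 CPM in the comparators. The part of these lists in the differences below was not tested. The 7 smooth muscle genes summed to 159 CPM in control and 76.1 CPM in Cre members, and to 770 and 297 CPM in the comparators. Il10ra had 0 UMIs in members of both libraries, which allows up to 0.190 and 0.152 CPM, so the deletion cannot be checked in these cells. Il10rb, the shared receptor chain, stood at 40.7 and 51.7 CPM, Pdgfra at 270 and 282 CPM and Pdpn at 194 and 221 CPM.

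Pi16-positive cells of the Cre mice held more transcripts of interferon-inducible, antigen presentation, complement and acute-phase genes, and fewer of several genes that set the population apart. Past 1.5-fold, 358 of the 8450 genes measured (4.24%) were higher with Cre and 216 (2.56%) lower. Past 2-fold the shares were 1.99% and 0.698%, and the median gene differed by -0.04 on the log2 scale. The comparators had 417 of the same genes (4.93%) past 1.5-fold upward and 178 (2.11%) downward. Both cell groups shared 239 of the higher and 77 of the lower genes.

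Of 48 measured genes of the type I interferon list, 42 were at least 1.5-fold higher in the Cre library and none was lower by that fold, with a median log2 ratio of 1.28 (0.91 in the comparators). Isg15, a ubiquitin-like modifier, stood at 66.8 CPM in control and 291 CPM in Cre members, a ratio of 4.36 (95% counting interval 4.08 to 4.66). Ifit1, which binds foreign RNA, stood at 15.2 and 89.4 CPM, and the nucleic acid sensor Zbp1 at 7.53 and 74.8 CPM. The most abundant genes of the list, Ifi27l2a (1587 and 3252 CPM) and Ifitm3 (1218 and 2884 CPM), were likewise higher, while Ifi27 stood at 71.5 and 64.1 CPM.

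All 19 measured genes of the interferon gamma and GTPase list were higher, with a median of 2.62 (2.15 in the comparators). Tgtp2, an immunity-related GTPase, stood at 4.68 CPM in control and 99.3 CPM in Cre members, Iigp1 at 21.7 and 389 CPM, and Ifi47 at 10.4 and 153 CPM. Gbp3, a guanylate-binding protein, stood at 7.78 and 65.7 CPM. Cxcl10, a chemokine for T cells, stood at 81.3 and 448 CPM. The type II transactivator Ciita stayed at 0.253 and 0.456 CPM, below the measured range. None of the 4 measured interferon receptor genes differed by 1.5-fold; Ifnar1 stood at 24.5 and 24.9 CPM and Ifngr1 at 111 and 128 CPM.

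Of 21 measured MHC class I genes, 20 were higher, with a median of 2.04 (1.70 in the comparators). The classical heavy chain H2-K1 rested at 326 CPM in control members and reached 1849 CPM in Cre members. B2m, its light chain partner, had 638 and 2478 CPM. The peptide transporter gene Tap1 stood at 13.3 and 73.2 CPM and the immunoproteasome subunit Psmb8 at 50.2 and 222 CPM. H2-Q6 and H2-Q7, nonclassical class I genes, were nearly undetected in control members, at 0.569 and 1.33 CPM, and stood at 149.8 and 156 CPM in Cre members. These 2 are near-identical paralogs, and reads may have been split between them. H2-Ab1, a class II gene, stood at 2.21 CPM in control and 22.9 CPM in Cre members, against 14.2 and 28.7 CPM in the comparators. A UMI of H2-Ab1 was present in 30 control and 224 Cre members.

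The 4 promoter windows below belong to genes of these 3 lists, chosen after their values were seen because they are higher in the Cre library and hold an interferon-response-like motif. Each is the 250 bases before the RefSeq start on GRCm38.p6, 5′ to 3′ on the gene's strand, with capitals marking GAAA, any 2 bases and GAAA again, or the reverse complement TTTC, any 2 bases and TTTC, with overlapping matches joined. The windows are chr4:156200819-156201068 (minus strand) for Isg15, chr19:34640639-34640888 (plus) for Ifit1, chr3:142559794-142560043 (plus) for Gbp3 and chr2:122147437-122147686 (plus) for B2m.
Isg15: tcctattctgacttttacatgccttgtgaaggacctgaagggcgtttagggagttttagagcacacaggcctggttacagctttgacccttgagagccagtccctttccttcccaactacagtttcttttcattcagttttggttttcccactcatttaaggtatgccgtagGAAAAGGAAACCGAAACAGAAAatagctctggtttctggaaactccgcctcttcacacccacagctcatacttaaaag
Ifit1: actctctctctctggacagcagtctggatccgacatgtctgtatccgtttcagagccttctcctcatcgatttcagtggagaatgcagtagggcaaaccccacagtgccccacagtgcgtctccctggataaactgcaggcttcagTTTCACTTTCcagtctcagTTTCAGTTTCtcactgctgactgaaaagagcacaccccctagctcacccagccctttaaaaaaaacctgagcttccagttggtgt
Gbp3: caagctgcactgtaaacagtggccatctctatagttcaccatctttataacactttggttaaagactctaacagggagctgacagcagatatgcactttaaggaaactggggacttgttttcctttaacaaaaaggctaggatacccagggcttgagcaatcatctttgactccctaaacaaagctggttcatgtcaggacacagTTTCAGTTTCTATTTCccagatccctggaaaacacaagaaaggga
B2m: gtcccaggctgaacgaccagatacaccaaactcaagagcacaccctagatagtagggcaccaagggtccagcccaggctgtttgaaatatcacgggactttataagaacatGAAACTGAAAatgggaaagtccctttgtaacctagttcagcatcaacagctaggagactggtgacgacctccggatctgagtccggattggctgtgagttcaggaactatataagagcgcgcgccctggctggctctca

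The Isg15 window holds 3 overlapping matches, that of Ifit1 2 separate ones, that of Gbp3 2 overlapping ones and that of B2m 1. Of the interferon and MHC class I genes at least 1.5-fold higher in Cre members, 63 of 81 had a window in the table. Of those genes 25 (39.7%) held the motif on either strand in at least 1 of their windows. Among all 27025 genes with a window the share was 3.46%, and among 6719 measured genes with a window 3.11%. Of the measured genes of the 3 lists that were not higher, 2 of 5 with a window held it, and of the adventitial list 3 of 23. Of the complement and acute-phase genes at least 1.5-fold higher in Cre members, 1 of 9 with a window held it. The 3 lists were chosen as interferon and MHC class I genes, so their share describes the lists and not the Cre library. A match is a stretch of letters and not a measured binding site.

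Complement genes were higher as well. Of 10 measured, 7 passed 1.5-fold upward and none downward, with a median log2 ratio of 1.29 (1.07 in the comparators). C4b, a component of the classical and lectin pathways, stood at 144 CPM in control members and 978 CPM in Cre members, a ratio of 6.80 (6.51 to 7.10), against 468 and 1071 CPM in the comparators. A UMI of it was present in 26.8% of control and 82.1% of Cre members, at raw depths that were higher in the Cre library. C3 showed the reverse order: it was already high in control members at 1709 CPM and stood at 4587 CPM in Cre members, against 316 and 2151 CPM in the comparators. Cfb, the alternative pathway protease, stood at 38.4 and 382 CPM in members, and C2 at 5.31 and 72.7 CPM. The inhibitor Cd55 did not reach 1.5-fold in either direction.

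All 9 measured acute-phase genes were higher, with a median of 2.82 (2.39 in the comparators). Serpina3n, a protease inhibitor, stood at 103 and 969 CPM and Lbp, which binds bacterial lipopolysaccharide, at 57.2 and 275 CPM. Saa3, a serum amyloid A protein, stood at 1.26 and 132 CPM, but its UMIs came from 59 of 1870 Cre members, and the 10 cells with most held 75.8% of them. Hp, haptoglobin, stood at 0.569 and 59.0 CPM, against 0.588 and 14.2 CPM in the comparators; 127 Cre members held it, and 10 of them gave 54.4% of its UMIs. These 2 sums therefore describe few cells. Serpina3n and C4b were spread more evenly, with 3.57% of C4b UMIs in the top 10 Cre members.

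Chemokines were mixed. Of 22 measured chemokine and cytokine genes, 9 were higher and none was lower by 1.5-fold, with a median of 0.54. Cxcl1, a neutrophil chemokine, stood at 1087 CPM in control and 2234 CPM in Cre members, and Cxcl12 at 382 and 730 CPM. Ccl2, a monocyte chemokine, stood at 677 and 641 CPM in members and at 113 and 531 CPM in the comparators. More Cre members held its UMIs: 25.8% of control and 46.5% of Cre members held at least 1, and the top 10 cells gave 22.6% and 17.7% of the sum. Cxcl9 (0.569 and 20.5 CPM) and Cxcl5 (0.822 and 22.1 CPM) were higher through few cells, since 72.5% and 48.3% of their Cre UMIs came from 10 cells. Il33, an alarmin, stood at 97.7 and 139 CPM in members and at 12.7 and 47.6 CPM in the comparators.

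**Figure D3:**
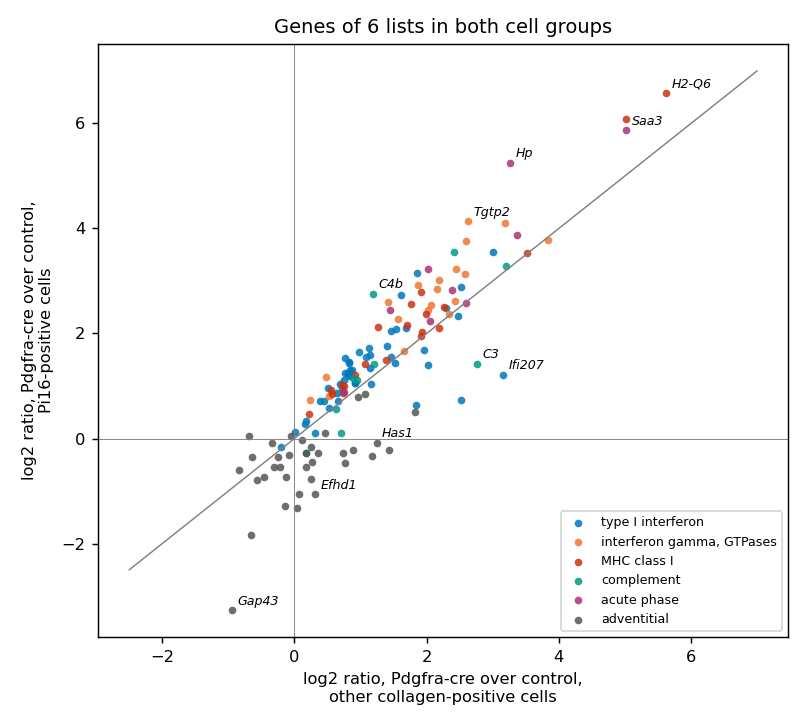
Log2 ratios of the Cre over the control library (CPM with 1 CPM added) in Pi16-positive cells against the same ratio in other collagen-positive cells, 1 point for each measured gene of 6 lists, with the line of equal ratios. Interferon, MHC class I and acute-phase genes lie above 0 on both axes with few exceptions, most adventitial genes lie below 0 on the vertical axis, and Hp, C4b, C3 and Gap43 lie away from the line.

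Single cells differed by list in how far the libraries overlapped. After thinning to 2000 UMIs, which left out 24 and 7 members, the type I interferon list gave a median of 10 UMIs per cell in control and 19 in Cre members. The central 90% of cells ran from 3 to 23 UMIs and from 6 to 49 UMIs, so the distributions overlapped. The variance was 5.17 times the mean in control and 9.11 times in Cre members. That multiple tends to rise with the mean, which was 10.9 and 22.2 UMIs, so it does not show a wider relative spread with Cre. Of Cre members, 47.6% (45.3 to 49.9) exceeded the control 90th percentile of 19 UMIs, and 21.0% lay at or below the control median. For MHC class I the medians were 4 and 15 UMIs, and 74.6% (72.6 to 76.6) of Cre members exceeded the control 90th percentile of 8. For complement genes 57.2% did, and for acute-phase genes 37.5%. Because of ties, the control members above these cuts were 8.56% for type I interferon, 9.89% for MHC class I, 9.17% for complement and 4.66% for acute phase. These shares also depend on how abundant a list is at 2000 UMIs, so they do not rank the lists. The acute-phase list had a control median of 0 UMIs, and 65.4% of control members held none. Comparators gave 37.4% for type I interferon and 72.2% for MHC class I, from higher control medians of 12 and 6 UMIs.

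**Figure D4:**
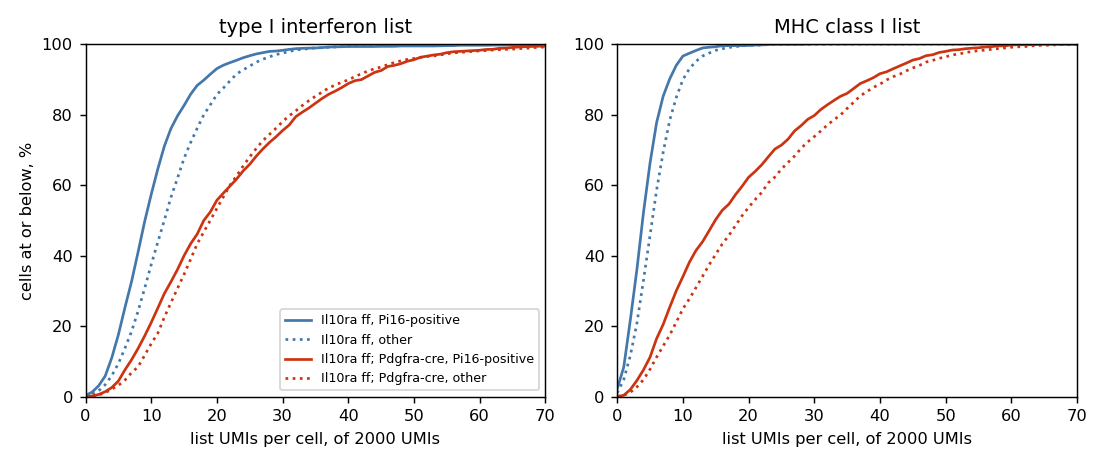
Cumulative share of cells by the UMIs of the type I interferon list (left) and the MHC class I list (right) after thinning each cell to 2000 UMIs, for Pi16-positive cells (solid) and other collagen-positive cells (dotted) of the control (blue) and Cre (red) libraries. Cre members have medians of 19 and 15 UMIs against 10 and 4 in control members, and the curves overlap at the low end.

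Several genes of the population's own profile were lower with Cre. The adventitial list used here was chosen with earlier results of these data known. Among the 35 measured adventitial genes, 11 passed 1.5-fold downward and 2 upward in Cre members, at a median log2 ratio of -0.35, while in the comparators 5 were lower and 9 higher with a median of 0.12. Ugdh, which makes the sugar precursor of hyaluronan, stood at 1272 CPM in control and 612 CPM in Cre members, Fbn1, the main microfibril protein, at 1246 and 749 CPM, and the guidance cue Sema3c at 532 and 322 CPM. Efhd1 was 2.12-fold lower (1.90 to 2.36). Wnt2, a WNT ligand, stood at 54.7 and 21.8 CPM, and outside the list Wnt10b at 28.8 and 10.7 CPM. Gap43, a growth-cone protein, had the lowest ratio of the named genes, at 25.3 and 1.72 CPM, with a UMI in 270 control and 26 Cre members; the neuronal tubulin regulator Stmn4 stood at 34.8 and 9.02 CPM. The 2 higher genes were Ly6a (1793 and 3089 CPM) and Ly6c1 (807 and 1446 CPM), surface proteins of the Ly6 family that interferon is known to induce. The stem-like markers Cd34 (913 and 627 CPM) and Cd55 were lower by less than 1.5-fold.

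Pi16 itself was lower in Cre members (in CPM), so the list was read again within 846 control and 624 Cre cells of over 10 Pi16 UMIs, a choice made after seeing the data. In these cells, a part of the same members, 11 adventitial genes were at least 1.5-fold lower, 9 of them among the 11 above. The cut is in raw UMIs, and median depth was 8953 UMIs for these control and 11523.5 for these Cre cells. It therefore does not match the cells by Pi16 CPM. Ugdh stood at 1608 and 810 CPM, Efhd1 at 88.4 and 49.5 CPM and Gap43 at 38.3 and 3.30 CPM, while Sema3c, at 671 and 447 CPM, was just short of 1.5-fold.

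**Figure D5:**
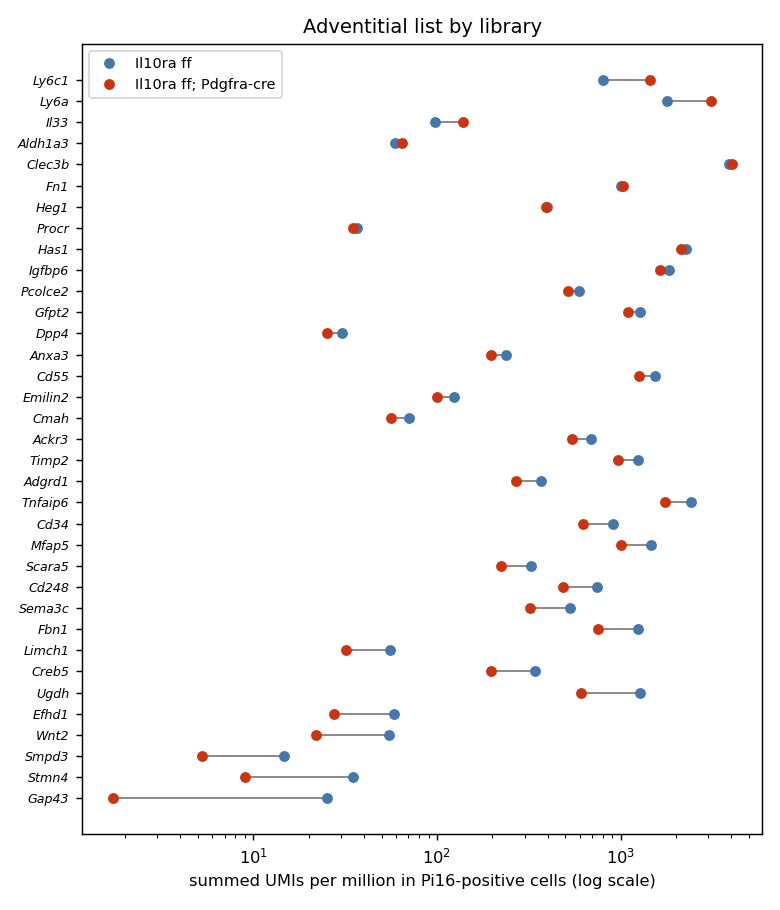
Summed CPM (log scale) of the 35 measured adventitial genes in Pi16-positive cells of the control (blue) and Cre (red) libraries, ordered by their ratio, 1 library per genotype. Ly6c1 and Ly6a are higher in the Cre library, and Gap43, Stmn4, Smpd3, Wnt2, Efhd1 and Ugdh are lowest relative to the control.

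Genes of other fibroblast layers divided. Of 11 measured trophocyte genes, 6 passed 1.5-fold upward, C3 among them, and 1 downward, Col15a1, at a median of 1.13 (1.16 in the comparators). Grem1 stood at 60.6 CPM in control and 243.7 CPM in Cre members, a ratio of 4.02 (3.75 to 4.31), with a UMI in 11.5% and 35.2% of cells. Rspo3, a WNT amplifier, stood at 17.1 and 64.9 CPM. Ackr4, a chemokine scavenger that marks trophocytes, stood at 137 and 161 CPM in members and at 16.1 and 73.6 CPM in the comparators. Of the 7 measured subepithelial genes 4 were lower at a median of -1.05, among them Sox6 (28.7 and 6.49 CPM) and Bmp5 (41.7 and 11.6 CPM). Few cells carried them: Sox6 was seen in 81 control and 24 Cre members, with 48.3% and 81.3% of its UMIs in the top 10 cells. Bmp5 was seen in 231 and 81 members, with 18.3% and 47.8% in the top 10. Sox6 and Bmp5 stood at 183 and 130.2 CPM and at 298 and 176 CPM in the comparators. Without called doublets the median was -0.49, and among the list's genes of at least 50 CPM it was 0.06.

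Most matrix genes stayed within 1.5-fold. Among all 8450 measured genes, 4.24% were higher and 2.56% lower by that fold. Of 15 measured collagens outside the rule 2 were lower, Col4a5 (34.2 and 8.01 CPM) and Col15a1 (86.2 and 49.1 CPM), and none was higher. Col14a1, the most abundant, stood at 1435 and 1368 CPM. Of 19 elastic fibre genes 2 were lower, Fbn1 and Eln (494 and 280.1 CPM), and 1, the crosslinking enzyme Lox, was higher (31.4 and 61.4 CPM). Of 27 measured proteoglycan and matricellular genes 4 were higher and 4 lower, among the lower Postn, periostin, at 845 and 406 CPM. Of 31 measured proteases and inhibitors 5 were lower and 1 was higher. The higher one was Mmp3, a matrix metalloprotease, at 9.36 and 82.5 CPM, with UMIs in 38 control and 220 Cre members.

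Contractile genes were lower, and fewer Cre members were called doublets (2 cells under 1 barcode). Of 17 measured TGF-beta and myofibroblast genes 7 were lower. Acta2, smooth muscle actin, stood at 159 and 46.8 CPM and Actg2 at 26.4 and 3.29 CPM, and the comparators held 1065 and 434 CPM and 158 and 44.0 CPM. The top 10 cells gave 61.6% of the control and 86.2% of the Cre Actg2 UMIs. Scrublet called 127 control members (6.43%) and 44 Cre members (2.35%) doublets. Without them the log2 ratio of Acta2 was -0.27 in place of -1.74 and that of Actg2 -1.33 in place of -2.67. The summed smooth muscle markers were lower in the Cre members too (above), and their part in these ratios was not tested.

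In the IL-10 and gp130 list 3 of 14 measured genes were higher and none lower by 1.5-fold, with a median of 0.31. Pim1, a kinase gene, stood at 120.9 and 201 CPM, Lifr, the receptor for leukaemia inhibitory factor, at 11.3 and 20.3 CPM, and the feedback inhibitor Socs3 at 577 and 709 CPM. Of 29 genes that tissue dissociation is known to induce, 1 was higher, the heat shock gene Hspb1 (220.3 and 358 CPM), and the median was 0.06, against -0.04 for all genes. Fos, for example, stood at 6219 and 6475 CPM. Of 18 cell cycle genes 3 were measured, and none of these differed by 1.5-fold. The list summed to 189.5 and 200.6 CPM, with Pcna at 90.1 and 80.3 CPM, while Mki67 stood at 0.253 and 0.0507 CPM.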

How the data were processed

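The authors' deposited values are raw UMI counts per gene and barcode, 1 filtered matrix per genotype, from the 10x Chromium 5′ assay. Cell Ranger 8.0.1 and GRCm39 are named per the submitters' processing notes. No deposited column went unused (0). The members and the 36 gene lists were chosen with earlier results of these data known. Counts were summed over the cells of a group and scaled to CPM, and ratios are log2 of CPM with 1 CPM added. A gene was measured at a mean of 10 CPM or more over the groups compared. Calls are by size alone (1.5-fold or 2-fold), and no test was possible with 1 library per genotype. Control members held 15811220 UMIs in all and Cre members 19736135, so an absent gene allows up to 3 counts of these totals. Ratio intervals and shares are exact at 95% and cover counting error only. Cells were thinned to 2000 UMIs for the list UMIs of single cells. Other numbers and shares of cells holding a UMI are raw unless 2000 UMIs per cell are named, and Cre members were deeper. Doublets called by Scrublet (expected rate 8%) were kept in the main values and removed as an alternative. Named genes were the markers, the extremes of each ranking with at least 20 CPM and 50 UMIs, and the 2 highest, 2 lowest and 2 most abundant of each list, and other genes were named after their values were seen. Promoters came from RefSeq on GRCm38.p6, matched by symbol. Scripts, tested on simulated data, used Python 3.11.15, numpy 2.4.6, scipy 1.17.1, pandas 2.3.3, scanpy 1.11.5 and matplotlib 3.10.9. Alternatives covered the Pi16, quality, CPM and depth thresholds, the added CPM and doublets.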

Additional observations from a re-analysis of the deposited data

Results flagged for a closer look

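For 11 of the 8450 measured genes, the ratio of Cre over control passed 1.5-fold in opposite directions in Pi16-positive cells and in other collagen-positive cells. By comparison, 239 genes were higher and 77 lower by that fold in both cell groups. Of the 11, 1 is an unnamed gene model left out here. There was 1 library per genotype and no test of the difference between cell groups. The difference of log2 ratios, Pi16-positive minus other cells, was -2.05 for the nuclear receptor Rorb (-1.07 against 0.97), -1.80 for Adgrg2 (-0.86 against 0.94), -1.68 for the transcription factor Prrx1 (-0.61 against 1.07) and -1.60 for Lmo2 (-0.78 against 0.82). It was -1.44 for Pi16, whose level chose the cells, -1.41 for each of Adamtsl1, Islr2 and Lrrn4cl, and -1.39 for Ildr2. Cdc42ep3 went the other way, with a difference of 1.80 (1.01 against -0.79). Adgrg2, Ildr2, Islr2, Lmo2 and Rorb were under 10 CPM in the comparators, with Islr2 at 0.790 and 1.81 CPM. Against comparators with 0 Pi16 UMIs the opposite ratio fell short of 1.5-fold for Islr2 (0.40), Lrrn4cl (0.47) and Ildr2 (0.43). Prrx1 fell short of 1.5-fold in Pi16-positive cells under 3 alternatives, at -0.53, -0.49 and -0.57.

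Barcodes with at least 2 Pi16 UMIs but fewer than 10 collagen UMIs numbered 335 (control) and 443 (Cre). The main comparisons left them out, and the setting with no collagen minimum below took them in. They held Pi16 at 1548 and 1038 CPM, Cd55 at 1199 and 847 CPM and Dcn, a fibroblast proteoglycan gene, at 13988 and 17857 CPM. The class I gene H2-K1 reached 319.5 and 1163 CPM, and Isg15 at 94.1 and 262 CPM.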

How the results depend on the processing

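Raising the minimum to 50 CPM gave 139 higher and 72 lower genes with Cre, 62 above and 146 below other cells, 16 type I interferon, 11 interferon gamma, 4 acute-phase and 5 lower adventitial genes, through fewer genes measured. With no minimum the counts were 866, 665 and 848 below other cells, with 15 acute-phase and 11 complement genes. Adding 10 CPM gave 122 lower genes and 250 below other cells. The subepithelial median turned from -1.05 to 0.0604 at 50 CPM. The control and Cre shares were 26.9% and 40.2% with at least 1 Pi16 UMI, 19.3% and 27.3% with at least 3, 20.6% and 26.0% after thinning, and 20.9% and 27.4% with no collagen minimum, so the Cre share was higher each time. Cre members above the control 90th percentile of type I interferon UMIs were 44.6% with no collagen minimum and 44.4% at 1000 UMIs. Of the other values of these comparisons 140 stayed within their limits, and of single genes and list medians 2975 did, while 23 crossed the threshold upward, 22 downward and 3 moved. The settings with no collagen minimum and with at least 11 Pi16 UMIs were chosen after seeing the data. No paired analysis was possible because each genotype has 1 library.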
